A study of Arabidopsis thaliana with 2 samples.

Results

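Root hair growth genes are 8 Arabidopsis loci that act in the making and lengthening of root hairs. They were chosen by locus name, and all 8 are present among the 21825 loci of the deposited table, each with 1 transcript model. They are the transcription factor genes RHD6 (AT1G66470), RSL2 (AT4G33880) and RSL4 (AT1G27740), the NADPH oxidase gene RHD2 (AT5G51060), the protein kinase gene IRE (AT5G62310), and the wall protein genes COBL9 (AT5G49270), PRP1 (AT1G54970) and PRP3 (AT3G62680). RNA of whole seedlings was sequenced as 1 library of the ARF18 overexpression line 35S-ARF18-OE-2 and 1 library of wild-type Col, both in the Col ecotype. ARF18 is an auxin response factor, and 35S is the common name of a viral promoter that is active in most plant tissues. The labels name a single overexpression line. Of age they say 7 days, while the growth notes describe 4 days of darkness and then 7 days of white light, so the age at harvest is uncertain. The question put to the 8 genes is whether their transcripts differ when ARF18 is overexpressed.

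A root hair is a tube that grows out of a single epidermal cell of the root by adding wall and membrane at its tip. RHD6 starts the programme in cells with hair fate, and the related factors RSL2 and RSL4, which act after it, drive growth. Auxin promotes hair growth, in part through RSL4. Reactive oxygen made by RHD2 at the tip, kinases such as IRE, and secreted wall proteins then shape the growing tube.

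The overexpression library held 6824188 counted reads and the Col library 7059226. ARF18 itself had 472 counts in the overexpression library and 97 in Col. With 1 library per genotype there was no replicate error and no test between genotypes. Intervals given below are 95% exact intervals of counting error only, and the values describe these 2 libraries. In whole seedlings, fewer hair cells and less RNA per hair cell cannot be told apart.

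Promoter and coding sequence set the proline-rich members apart from the other 6. In the windows from 500 bases before to 50 bases after the annotated gene starts, PRP1 and PRP3 each held 1 match to the root hair element, a published promoter consensus of genes expressed in hair cells. Both matches lie on the strand opposite to the gene, and 14 of their 17 bases are identical. The matched bases are in capitals in the reference sequences, which come from the RefSeq TAIR 10.1 assembly and are written along the plus strand, on which both genes lie.
PRP1: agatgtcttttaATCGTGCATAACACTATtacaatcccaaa
PRP3: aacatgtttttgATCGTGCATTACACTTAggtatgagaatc
The PRP1 stretch is chr1:20504760-20504800, with the match starting 129 bases before the gene start. The PRP3 stretch is chr3:23182543-23182583, with the match starting 167 bases before it. Among 15068 expressed loci the same search, on both strands, found the element in 1.59% of windows. As the consensus was drawn from genes of hair cells, a higher share among such genes is no finding of these data. The other 6 root hair growth genes held no match, which says only that these letters are not in this window. The auxin response letters TGTCTC were found, on both strands, in the RHD6 window alone (2 matches), against 23.9% of all windows. Neither TGTCGG (9.6% of windows) nor the bHLH-bound letters CACGTG (11.4%) occurred in any of the 8.

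The coding sequences of PRP1 and PRP3 are also rich in C, since every codon of proline begins with CC. The most C-rich 90 bases of each are shown with runs of C in capitals, beside the same for LRX1, a leucine-rich repeat extensin of root hair walls, and EXT6, an extensin.
PRP1: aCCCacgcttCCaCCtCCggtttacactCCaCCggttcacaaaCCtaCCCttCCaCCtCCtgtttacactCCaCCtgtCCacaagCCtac
PRP3: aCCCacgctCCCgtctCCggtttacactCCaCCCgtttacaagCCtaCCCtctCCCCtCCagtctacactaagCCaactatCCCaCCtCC
LRX1: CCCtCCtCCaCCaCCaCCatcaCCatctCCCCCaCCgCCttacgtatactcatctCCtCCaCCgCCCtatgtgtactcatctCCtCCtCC
EXT6: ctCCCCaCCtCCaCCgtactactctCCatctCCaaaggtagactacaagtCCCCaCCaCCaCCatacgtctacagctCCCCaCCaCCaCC
These stretches lie at chr1:20505116-20505205 in PRP1, chr3:23182894-23182983 in PRP3, chr1:4071527-4071616 in LRX1 and chr2:10622692-10622781 in EXT6 (TAIR 10.1, plus strand, each within 1 exon). In both PRP1 and PRP3 the stretch runs from coding base 117 to coding base 206. C made up 46.7% of the stretch in PRP1 and 48.9% in PRP3, against 53.3% in LRX1. Over the whole reference transcript the C share was 30.0% in PRP1 and 31.0% in PRP3, above 99.6% and 99.7% of expressed loci, whose median was 19.7%.

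Summed, the 8 genes did not differ between the libraries beyond counting error. They came to 1029 counts in the overexpression library and 1022 in Col, a ratio of 1.04 (0.954 to 1.14) after scaling to the library totals. PRP3 alone supplied 58.7% of these counts in the overexpression library and 53.7% in Col. Without PRP3 the sums were 425 counts in the overexpression library and 473 in Col, a ratio of 0.929 (0.813 to 1.06). On the scale of log2(RPKM + 1), where RPKM is the count scaled to transcript length and library total, 6 of the 8 genes reached a mean of 1 RPKM and count as expressed. RSL4 and IRE fell short of it. Of the 6, 3 had log2 ratios above 0 and 3 below, against 53.8% and 46.2% of the 15083 expressed nuclear loci. Their median log2 ratio was 0.03, the same as the median of all expressed loci. With the added 1 RPKM, which pulls low genes towards 0, none of the 6 was 2-fold apart in either direction, whereas 1.25% of expressed loci were 2-fold higher and 0.663% were 2-fold lower. With 0.1 RPKM added instead, RSL2 passed 2-fold, at a log2 ratio of 1.22. The share of all expressed loci past 2-fold at that setting is not given here.

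All 3 regulators had ratios above 1, where 53.8% of expressed loci had log2 ratios above 0, and RSL2 had the highest ratio of the 8 members. RSL2, at 16239363 to 16241169 on chromosome 4, minus strand (5 exons), had 26 counts in the overexpression library and 11 in Col, or 2.83 RPKM against 1.16 RPKM in Col. Its ratio was 2.45 (1.17 to 5.48), and its log2 ratio of 0.83 stood above that of 97.9% of expressed loci. In the authors' deposited table, RSL2 had a log2 ratio of 1.29 and an FDR of 0.0639, from a test on the reads that compares libraries and not genotypes. RHD6, which acts at the start of hair formation, occupies 24795214 to 24797015 on chromosome 1, plus strand (5 exons). It had 58 counts in the overexpression library and 44 in Col, or 6.08 RPKM against 4.46 RPKM in Col, a ratio of 1.36 with an interval that included 1 (0.906 to 2.07). RSL4, the factor whose amount is known to set final hair length, occupies 9654475 to 9656089 on chromosome 1, plus strand (4 exons). It had 8 counts in the overexpression library and 5 in Col, a ratio of 1.66 (0.477 to 6.43), so that neither a lower level nor a several-fold higher one could be told from no difference at this depth. Summed, the 3 regulators had 92 counts in the overexpression library and 60 in Col, a ratio of 1.59 (1.13 to 2.23). This sum was formed after the single values were seen, and it rests on RSL2: RHD6 and RSL4 alone came to 66 counts in the overexpression library and 49 in Col, a ratio of 1.39 with an interval that included 1 (0.948 to 2.06).

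The 2 enzymes differed in how well they were measured. RHD2, also known as RBOHC, makes superoxide at the hair tip, and occupies 20757199 to 20762461 on chromosome 5, minus strand (11 exons). It had 78 counts in the overexpression library and 98 in Col, or 3.6 RPKM against 4.37 RPKM in Col, a ratio of 0.823 (0.604 to 1.12). A difference of 2-fold in either direction thus lay outside its counting interval. IRE, a kinase named for the short hairs of its mutant, occupies 25023155 to 25028686 on chromosome 5, plus strand (17 exons). It had 7 counts in the overexpression library and 4 in Col, or 0.288 RPKM against 0.159 RPKM in Col. The interval of its ratio, 0.46 to 8.43 around 1.81, left a difference not detectable at this depth.

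The 3 wall protein genes held most of the reads of the 8. COBL9, a COBRA-like protein held to the membrane by a lipid anchor, occupies 19971884 to 19974530 on chromosome 5, minus strand (2 exons). It was the member with the lowest ratio, at 153 counts in the overexpression library and 203 in Col, or 10.4 RPKM against 13.4 RPKM in Col. The ratio was 0.78 (0.628 to 0.966). PRP1, a structural proline-rich protein of the wall, occupies 20504901 to 20506504 on chromosome 1, plus strand (2 exons), and had 95 counts in the overexpression library and 108 in Col, a ratio of 0.91 (0.683 to 1.21). PRP3, its relative at 23182722 to 23184042 on chromosome 3, plus strand (2 exons), had 604 counts in the overexpression library and 549 in Col, or 75.5 RPKM against 66.3 RPKM in Col. Its ratio of 1.14 (1.01 to 1.28) was the most precisely counted of the 8. The interval lay wholly above 1 for 2 of the 6 expressed members (RSL2 and PRP3) and wholly below 1 for COBL9. Among all expressed loci 18.7% lay above and 15.6% below, so these counts do not set the members apart. PRP3 no longer lay above 1 after rescaling the libraries by their trimmed mean or median ratio, and neither PRP3 nor COBL9 kept its call when set against genes of like length and GC content.

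**Figure D1:**
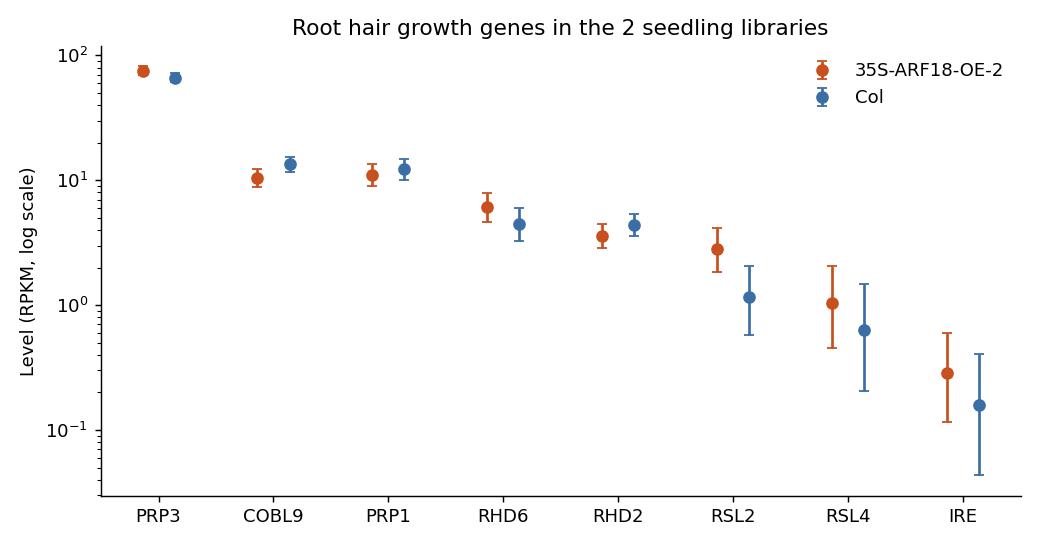
Level of each root hair growth gene in RPKM (log axis) in the 35S-ARF18-OE-2 library (orange, left of each pair) and the Col library (blue), with 95% exact counting intervals. PRP3 stands highest in both, at 75.5 and 66.3 RPKM, and the intervals of IRE and RSL4 are the widest.

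Read per length, the order of levels was PRP3, PRP1, COBL9, RHD6, RHD2, RSL2, RSL4 and IRE in the overexpression library. In Col it was the same but for COBL9 standing above PRP1. PRP1 and COBL9 did not differ beyond counting error in either library: the RPKM of PRP1 was 1.06 times that of COBL9 in the overexpression library (0.813 to 1.38), and that of COBL9 was 1.1 times that of PRP1 in Col (0.867 to 1.4). RHD6 stood above RHD2 in the overexpression library, by 1.69 times (1.18 to 2.4), whereas in Col they did not differ beyond counting error, at 1.02 times (0.697 to 1.47). RHD2 stood above RSL2 beyond counting error only in Col, being at 1.27 times in the overexpression library (0.808 to 2.07) and 3.78 times in Col (2.02 to 7.82). PRP3 exceeded the next gene by 6.82 times in the overexpression library (5.48 to 8.56) and by 4.96 times in Col (4.21 to 5.85). RSL2 exceeded RSL4 beyond counting error in the overexpression library, by 2.71 times (1.19 to 6.94), and not in Col, at 1.84 times (0.589 to 6.75). The same held for RSL4 over IRE, at 3.61 times (1.15 to 11.7) in the overexpression library and 3.95 times (0.851 to 19.9) in Col. Whether any of these ratios differed between the libraries was not tested. An interval that excludes 1 in only 1 library does not show such a difference.

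**Figure D2:**
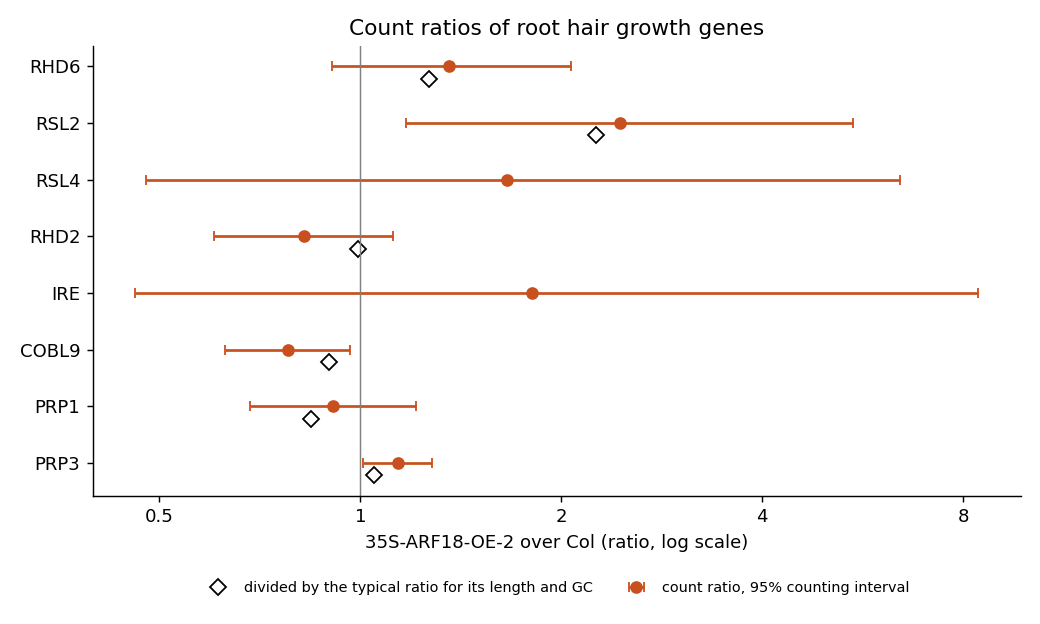
Count ratio of 35S-ARF18-OE-2 over Col for each root hair growth gene (log axis), with 95% exact counting intervals in orange. Open diamonds give the ratio divided by the typical ratio of genes of like length and GC content, for the 6 expressed genes; RSL2 stays well above 1 and RHD2 moves to about 1.

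Transcript length moved with the ratio across all genes of these libraries, and it moved with the members too. With expressed genes split into 10 equal groups by length, the shortest (75 to 680 bases) had a median log2 ratio of 0.34, and the longest (2614 to 15465 bases) one of -0.31. RHD2 falls in the longest group and COBL9 in that from 2098 to 2612 bases, whose median was -0.17, while RHD6, RSL2 and PRP1 fall in that from 1240 to 1424 bases, at 0.09. After subtracting the typical value for length and then GC content, the log2 ratio of RHD2 was 0.04 (-0.22 before) and that of COBL9 -0.13 (-0.33 before). The values of RSL2 (0.83 before, 0.71 after) and RHD6 (0.38 before, 0.27 after) stayed positive. PRP1 was at -0.23 after (-0.13 before) and PRP3 at 0.07 (0.18 before). On that footing RSL2 was the only expressed member whose interval excluded 1, and COBL9 no longer did. Among all expressed loci, 11.1% then lay above 1 and 12.6% below.

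**Figure D3:**
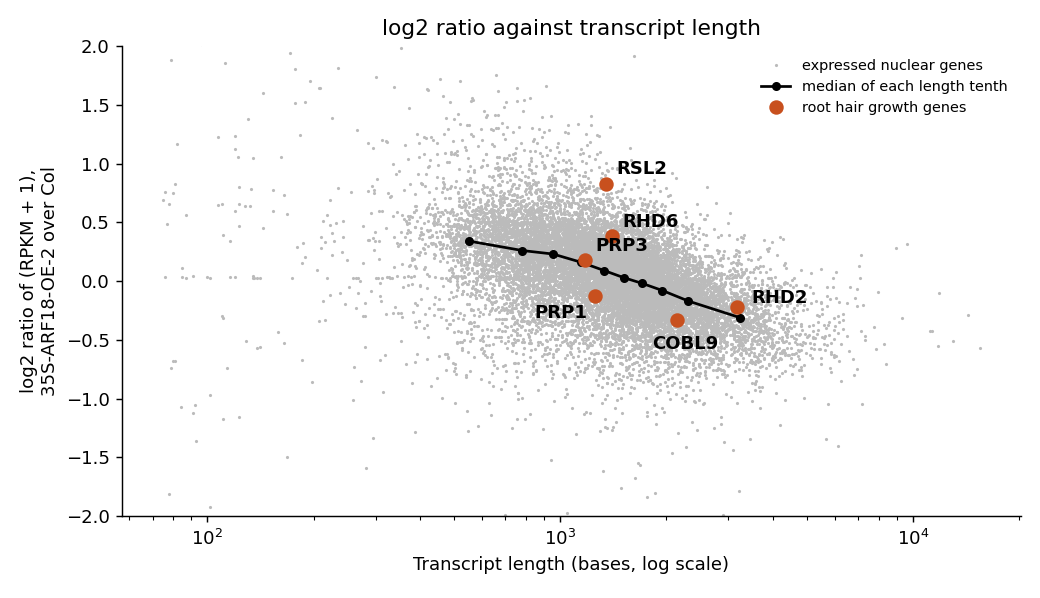
Each grey point is an expressed nuclear gene, by transcript length (bases, log axis) and log2 ratio of 35S-ARF18-OE-2 over Col; the black line joins the medians of 10 equal groups by length, and 19 genes beyond 2 on either side are outside the plot. The orange root hair growth genes RHD2 and PRP3 lie on the line, and RSL2 lies at 0.83, above it.

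PRP1 and PRP3 were among the highest of the most C-rich transcripts in these libraries. Of the 41 expressed loci with a C share at or above the 30.0% of PRP1, 36 had a log2 ratio below 0. An interval wholly below 1 was found for 27. The shares over all expressed loci were 46.2% and 15.6%. The median log2 ratio of the 41 was -0.87, or -0.79 adjusted for length and GC content. At least 2-fold lower were 15, against 0.663% of all expressed loci. PRP3 ranked 3rd and PRP1 8th from the highest of the 41. PRP3 was the 1 locus among them with an interval wholly above 1 (18.7% of all expressed loci), and rescaling removed that call. With expressed loci split into 10 equal groups by C share, the richest group (22.8% to 41.2%) had a median log2 ratio of 0.01. All expressed loci had 0.03, so the low ratios of the 41 did not extend to that whole group. The level at which the 41 were delimited was set by PRP1 itself, and the difference between PRP1 and PRP3 and the rest was not tested. No 50-base stretch of PRP1 or PRP3 occurs in the transcript of another annotated locus, and no member overlaps another annotated gene. Among the other members, RSL2 shares 1 such stretch of 1330, with AT2G14760 (RSL3).

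**Figure D4:**
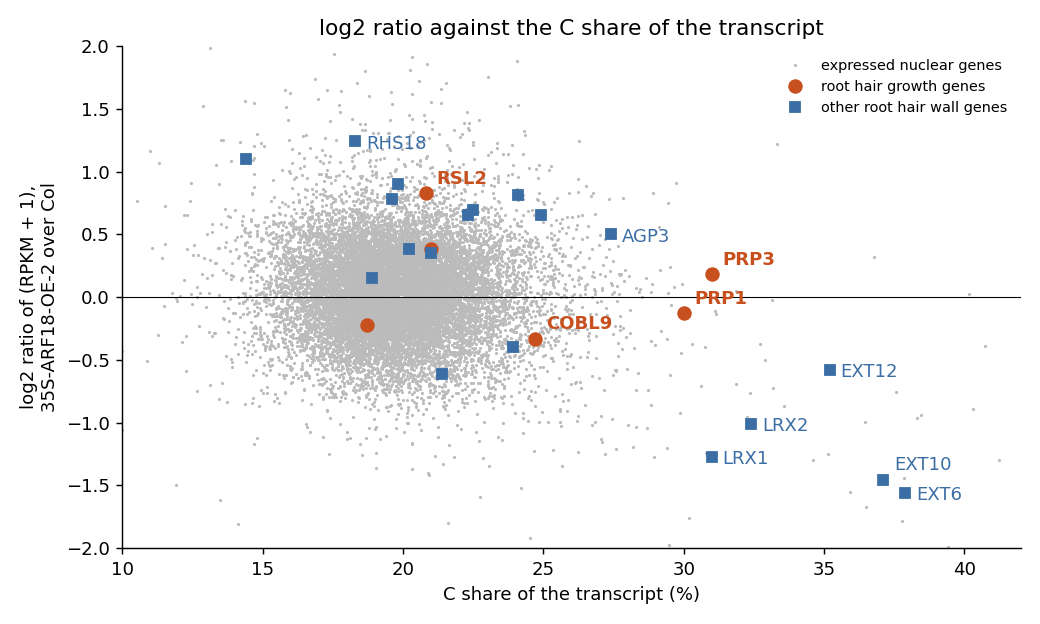
log2 ratio of 35S-ARF18-OE-2 over Col against the C share of the transcript (%) for expressed nuclear genes (grey), root hair growth genes (orange) and other root hair wall genes (blue); 26 genes lie outside the axes. PRP1 and PRP3 sit near 0 at 30.0% and 31.0% C, where LRX1 and LRX2 sit below -1.

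Other genes of the root hair wall went both ways. All 19 listed genes were expressed, with 12 log2 ratios above 0 and 7 below and a median of 0.38 (0.35 adjusted). The interval lay above 1 for 9 and below 1 for 7, against 18.7% and 15.6% of all expressed loci. On the log2(RPKM + 1) scale 2 genes were 2-fold or more higher (RHS18 and MRH6) and 4 lower, against 1.25% and 0.663% of expressed loci. MRH6, with 17 counts in the overexpression library and 5 in Col, was at 0.837 RPKM in Col. It reached the expression limit only through the overexpression library. So did XTH26, at 0.517 RPKM in Col, and RHS8, at 0.941 RPKM in Col. RHS18, a peroxidase of hair cells, had 46 counts in the overexpression library and 15 in Col, a ratio of 3.17 (1.74 to 6.12). Lowest were EXT6, at 138 counts in the overexpression library against 444 in Col and a ratio of 0.322 (0.264 to 0.39), and EXT10, another extensin, at 290 against 852 in Col and 0.352 (0.307 to 0.403). Reads of EXT10 may be shared, since 19.6% of its 50-base stretches occur in other transcripts, against 4.54% for EXT6. LRX1 had 143 counts in the overexpression library and 380 in Col, a ratio of 0.389 (0.319 to 0.473). All 4 genes past 2-fold lower, the 3 named here and LRX2, encode extensins, which like PRP1 and PRP3 hold proline-rich repeats. Other genes of the list with C-rich stretches went both ways. AGP3, with 52.2% C in its most C-rich 90 bases, had a ratio of 1.42 (1.21 to 1.68). PRPL1, with 45.6%, had 1.78 (1.46 to 2.16). SHV3, with 43.3%, had 0.755 (0.69 to 0.825), and the extensin EXT12, with 51.1%, had 0.661 (0.563 to 0.774).

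The root hair element of PRP1 and PRP3 also occurred in 8 of these 19 wall genes, against 1.59% of all windows searched. The consensus was drawn from genes of hair cells, and whether any of the 19 served to define it was not checked. Sites of 4 of the 8 wall genes that hold it are shown along the strand of each gene, all of them on the plus strand of chromosome 1. They were chosen for the motif and for their ratios, to set genes with high and low ratios side by side.
LRX1: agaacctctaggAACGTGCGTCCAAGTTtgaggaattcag
LRX2: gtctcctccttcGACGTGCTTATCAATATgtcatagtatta
EXPA7: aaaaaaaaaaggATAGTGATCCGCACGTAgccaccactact
EXPA18: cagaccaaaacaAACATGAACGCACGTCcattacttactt
They lie at chr1:4069887-4069926 in LRX1, chr1:23112664-23112704 in LRX2, chr1:4276415-4276455 in EXPA7 and chr1:23331511-23331550 in EXPA18 (TAIR 10.1). EXPA18 held a further match, within chr1:23331556-23331596, that is not shown. The extensins LRX1 and LRX2, with matches on the opposite strand as in PRP1 and PRP3, had log2 ratios of -1.27 and -1.01. The expansins EXPA7 and EXPA18, wall-loosening proteins of hair cells with matches on the gene's own strand, had 0.65 and 0.38. The other 4 holders, RHS13, RHS18, RHS19 and MRH6, had 0.90, 1.24, 0.65 and 1.1. Genes with the element thus went in both directions, with only LRX1 and LRX2 of the 8 below 0. Over all 239 expressed loci that hold it, the median log2 ratio was 0.04, against 0.03 for all expressed loci, with 21.3% of intervals above 1 and 13.8% below.

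None of the 4 measured relatives of the regulators had an interval that excluded 1. Among all expressed loci 18.7% lay above 1 and 15.6% below, so this does not set the 4 apart. Of 6 listed bHLH genes, RSL3 and RSL5 are not listed in the deposited table, and the other 4 were expressed. Their median log2 ratio was 0.23 (0.05 adjusted). RSL1, the closest relative of RHD6, had 8 counts in the overexpression library and 6 in Col, a ratio of 1.38 (0.42 to 4.82). At 0.92 RPKM in Col, RSL1 reached the expression limit only through the overexpression library. The later-acting LRL3 had 53 counts in the overexpression library and 37 in Col, a ratio of 1.48 (0.956 to 2.32). LRL2 had a ratio of 1.16 (0.996 to 1.36) and LRL1 0.897 (0.772 to 1.04). Upstream, of 10 genes that decide hair or non-hair fate, 8 were expressed, with a median of 0.15 (0.14 adjusted) and 2 intervals above 1 and none below, against 18.7% and 15.6% of all expressed loci. These were ETC1, a small MYB protein that favours hair fate, at 28 counts in the overexpression library against 10 in Col and a ratio of 2.9 (1.37 to 6.68), and WER, a MYB factor of non-hair cells, at 15 against 5 in Col and 3.1 (1.07 to 10.9). The log2 ratio of WER was 0.98, or 0.73 adjusted. At 0.868 RPKM in Col, WER reached the expression limit only through the overexpression library, as did TRY, at 0.879 RPKM in Col. The hair-promoting CPC had 0.734 (0.405 to 1.31), and MYB23, a relative of WER, 0.799 (0.399 to 1.58). GL2, which blocks hair formation in non-hair cells, had 8 counts in the overexpression library and 13 in Col and did not reach the expression limit.

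Signalling and trafficking genes of tip growth were spread around 0. Of 20 listed, 19 are in the table and 15 were expressed, with a median log2 ratio of 0.14 (0.14 adjusted). The interval lay above 1 for 6 and below for 3, against 18.7% and 15.6% of all expressed loci, and no log2 ratio of (RPKM + 1) reached 2-fold. COW1, a phosphatidylinositol transfer protein of the hair tip, had 31 counts in the overexpression library and 13 in Col, a count ratio of 2.47 (1.25 to 5.14) and, as a low gene, a log2 ratio of 0.67. At 0.666 RPKM in Col, COW1 reached the expression limit only through the overexpression library. PIP5K3, which makes a membrane phosphoinositide there, had 27 counts in the overexpression library and 16 in Col, a ratio of 1.75 (0.907 to 3.47). OXI1, a kinase activated by reactive oxygen, had a ratio of 1.41 (1.02 to 1.95). MRH1, a receptor-like kinase, was the lowest at 0.598 (0.504 to 0.709), with a log2 ratio of -0.69, or -0.41 adjusted.

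Paralogues of the members gave their own values. PRP2 and PRP4, proline-rich proteins like PRP1 and PRP3, had ratios of 0.842 (0.715 to 0.992) and 0.639 (0.622 to 0.656), both with intervals below 1, and log2 ratios of -0.39 and -0.57 adjusted. Of the other 9 RBOH oxidase genes, RBOHD and RBOHF were expressed. RBOHD, the main oxidase of defence responses, had a ratio of 0.694 (0.612 to 0.787), and RBOHF 0.916 (0.676 to 1.24). IREH1, the 1 expressed relative of IRE, had 412 counts in the overexpression library and 617 in Col, a ratio of 0.691 (0.608 to 0.784). It is a long transcript, and its log2 ratio of -0.50 was -0.07 adjusted. Of 10 COBRA family genes, 7 were expressed, with a median of 0.13 (-0.01 adjusted), 2 intervals below 1 and none above (15.6% and 18.7% of all expressed loci). COBL8 had a ratio of 1.44 (0.97 to 2.15), COBL2 1.3 (0.815 to 2.09), COBL5 1.17 (0.935 to 1.46) and COBL7 0.76 (0.681 to 0.847).

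**Figure D5:**
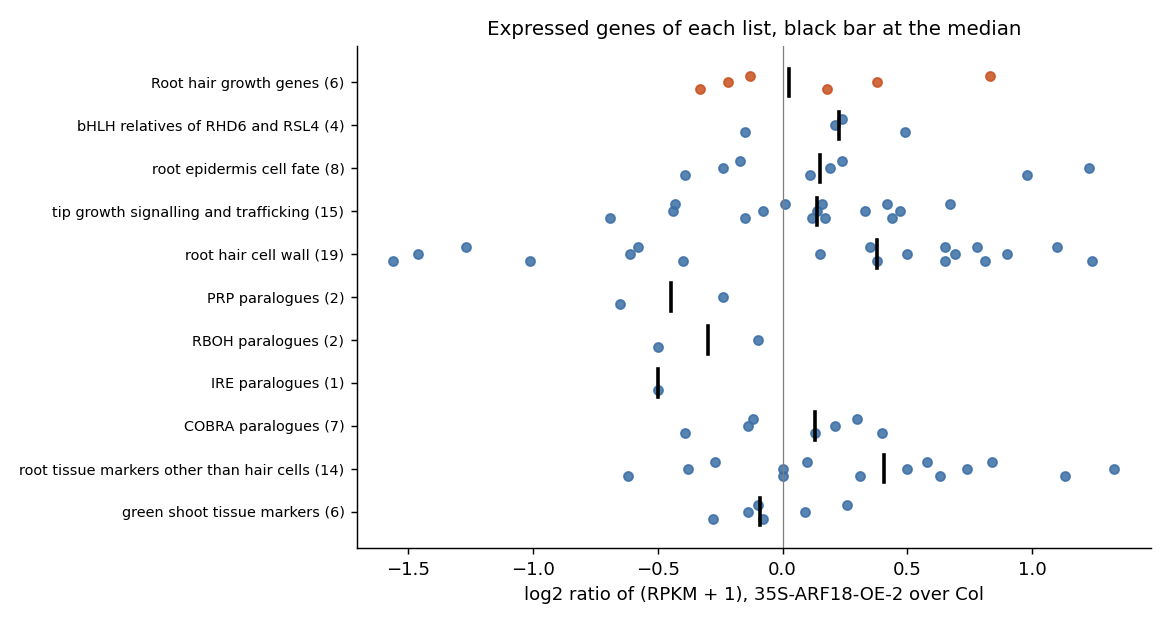
log2 ratio of 35S-ARF18-OE-2 over Col for the expressed genes of each list (number in brackets), with a black bar at the median. The 6 root hair growth genes (orange) spread from -0.33 to 0.83, and the root hair cell wall list has the widest spread, from -1.56 to 1.24.

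Markers of other tissues were also read. All 14 root markers outside hair cells were expressed, with 10 log2 ratios above 0, 4 below, a median of 0.40 (0.26 adjusted), 5 intervals above 1 and 3 below (18.7% and 15.6% of all expressed loci). Their log2 ratios ran from -0.62 to 1.33. TIP2;3, a root aquaporin, had a ratio of 2.74 (1.96 to 3.89), WOX5, of the quiescent centre, 2.59 (1.42 to 4.95), and the Casparian strip genes CASP1 and CASP2 1.8 (1.61 to 2) and 1.7 (1.38 to 2.09). Below 1 were SCR, a regulator of the endodermis, at 0.642 (0.563 to 0.731), PHO1, a phosphate exporter, at 0.767 (0.717 to 0.821), and PYK10, a root glucosidase, at 0.832 (0.825 to 0.839). In sum the list went the other way, at 16090 CPM (counts scaled to the library total) in the overexpression library and 19200 in Col, nearly all of it PYK10. None of the 14 root markers had a count of 0 in either library. The 6 green tissue markers had a median of -0.09 (-0.20 adjusted), with 1 interval above 1 and 4 below (18.7% and 15.6% of all expressed loci). They summed to 3844 CPM in the overexpression library and 4015 in Col. Of these, LHCB1.1, LHCB2.1 and LHCB3 of the antenna had ratios of 0.821, 0.906 and 0.934, and RBCS1A, a Rubisco subunit, 1.2. The part of root or shoot amount in the values of RSL2 and the other members was not tested.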

How the data were processed

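Whole-seedling RNA of 1 library per genotype was measured. Per the file headers, the authors gave raw counts for each transcript model beside RPKM, with a count of 0 written as an RPKM of 0.01 (set to 0 here). The deposited log2 ratio is that of the RPKM columns, and the deposited p-value and FDR come from an unnamed test. Per the submitters' processing notes, the genome was TAIR 10. Aligner, counter and strandedness were not given in the sources used here, so antisense reads cannot be told apart. RPKM recomputed from the counts differed by at most 3.2e-06 percent.

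The 24295 transcript models were summed to 21825 loci. Expressed means a nuclear locus with a mean of 1 RPKM or more. The log2 ratio used a pseudocount of 1 RPKM, which understates low genes. Count ratios carry 95% exact conditional binomial intervals. The adjustment subtracted the medians of 50 bins of length, then of 50 bins of GC content, the latter known for 15069 loci. Base composition, positions and sequences came from RefSeq TAIR 10.1, whose transcripts of the 8 genes are 27 to 472 bases longer than the table's models. The members and the 10 lists (99 genes) were chosen with earlier results of these data known. Genes named are the members, in each list the expressed genes (4 at most) farthest from 0 in log2 ratio, and others marked as chosen for a motif. PYK10, SCR, PHO1, GL2, MRH6, AGP3, PRPL1, SHV3, EXT12, XTH26, RHS8 and TRY were chosen after their values were seen. Steps were tested on simulated data with Python, numpy, pandas, scipy and matplotlib (versions 3.11.15, 2.4.6, 2.3.3, 1.17.1 and 3.10.9).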

Additional observations from a re-analysis of the deposited data

How the results depend on the processing

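No paired analysis was possible because there was a single library of each genotype, and no replicate could be left out. With a pseudocount of 0.1 RPKM, 1 member, RSL2, was at least 2-fold higher, as it was by the authors' deposited log2 ratio, against 0 as reported. At a 1.5-fold threshold RSL2 was the 1 member counted as higher, at its log2 ratio of 0.83. The shares of all expressed loci called under these settings are not given here, so these calls cannot be weighed against them. No member was 2-fold lower under any alternative run. Trimmed-mean (TMM) and median-centred scaling, which moved ratios by -0.03 and -0.05 on the log2 scale, left 1 member above 1 by its interval and removed PRP3. Scaling to genes of like length and GC content left 1 above and 0 below. All 54 log2 ratios of single members under alternatives stayed within the counting interval of the member. The median of the members was between 0 and 0.17, the highest with no filter on low values. Of 60 list medians recomputed, an alternative chosen after seeing the data, 2 moved with the length and GC adjustment: the RBOH list, to 0.01, by more than the SD of its 2 genes, and IREH1, the 1 expressed gene of its list, to -0.07, outside its counting interval. Depth limits RSL4 and IRE most, whose intervals span more than a 2-fold difference in both directions.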
